A study of Eriocheir sinensis with 6 samples.

Results

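Chromatin accessibility was described for a pair of genes annotated as receptors of the Chinese mitten crab (*Eriocheir sinensis*), a rhodopsin-like gene (evm.TU.CM024144.1.276) and HTR4 (evm.TU.CM024104.1.157). The members were every merged ATAC-seq peak that the deposited table links to either gene ID, which gave 17 peaks for the rhodopsin-like gene and 13 for HTR4, 30 of 104657 merged peaks in all. Both genes stand in the study's tables of candidate G protein-coupled receptors, where they were picked on differences between the pre-molt and molt stages, so the pre-molt stage entered their choice. Neither was kept in the study's final set of receptors after its check of predicted membrane helices, so both are receptors by annotation only.

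G protein-coupled receptors cross the plasma membrane and pass an outside signal to heterotrimeric G proteins, which then change the level of second messengers such as cyclic AMP or calcium. Rhodopsins are the light-sensing members of this superfamily and gave their name to its main class, to which the serotonin receptors belong as well. HTR4 is named after the mammalian serotonin receptor 4, which couples to the stimulatory G protein and raises cyclic AMP, and serotonin is a neurotransmitter and neurohormone in crustaceans. Molting in crustaceans is driven by ecdysteroids, whose synthesis is held back by neuropeptides of the eyestalk. The gene names are those of the study, and no ligand of either crab protein was measured here.

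ATAC-seq, which reads out open chromatin from the places where a transposase can insert adapters, was run on muscle of healthy farmed crabs at the post-molt stage (Mu_A, 3 libraries) and at the pre-molt stage (Mu_D, 3 libraries). The stages lie on either side of the shedding of the exoskeleton, no agent was given to either, and the study's methods name walking-leg muscle and a single crab per sample. The comparison asks how accessibility near these genes differed between both stages, and every change below is post-molt over pre-molt. Whole muscle was used, so a smaller share of cells with open chromatin and less open chromatin per cell cannot be told apart, and the labelled tissue was not checked against marker genes because the gene IDs in the files used here carry no names.

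The libraries held 10992785 to 16985168 reads in merged peaks, with a median of 46 to 58 reads per peak. Pre-molt replicate 2 stood apart: 36.7% of its reads fell in merged peaks, against 24.7% to 26.3% in the post-molt libraries and 23.8% and 27.9% in the other pre-molt libraries. The summed values of both genes, and the peaks whose call or sign depended on this library, are therefore also given without it. CPM below is a read count scaled to the reads that the library has in merged peaks (counts per 1000000), with library sizes adjusted by the TMM method. The TMM factors for single peaks and parts of a gene were computed over peaks, and those for whole genes over summed counts. The sums of the parts therefore do not add up exactly to the sum of the whole gene. A peak was called higher or lower when its Benjamini-Hochberg adjusted p in edgeR's quasi-likelihood test over all 104657 merged peaks was below 0.05, which 9.95% of merged peaks were (6.08% higher and 3.86% lower).

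The rhodopsin-like gene lies on the plus strand of sequence CM024144.1 from 8883560 to 8901922, a body of 18363 bp. Its 17 linked peaks were spread over 94.8 kb, from 8878799 to 8973578, and no other merged peak lay within that span. None of them was annotated as a promoter peak, a class that reaches 3000 bp from a start site, whereas 70.0% of the 17908 linked genes had at least 1 promoter peak. The annotation placed 14 of the 17 in introns and 3 in exons, mostly of neighbouring genes. Only 2 peaks were inside the body of the rhodopsin-like gene itself, 2 were inside the upstream gene evm.TU.CM024144.1.275, and 13 were inside evm.TU.CM024144.1.277. The gene evm.TU.CM024144.1.277 is on the minus strand from 8900506 to 9083595 and overlaps the 3′ end of the rhodopsin-like gene. The linkage is that of the deposited table, and 13 of 17 peaks attributed to the rhodopsin-like gene cannot be told apart from elements of the gene that contains them.

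The chromatin linked to the rhodopsin-like gene was more accessible after the molt. Its summed signal was 134.9, 147.5 and 125.4 CPM in post-molt replicates 1, 2 and 3, against 46.9, 61.8 and 59.2 CPM in pre-molt replicates 1, 2 and 3. The lowest post-molt library was above the highest pre-molt library, so the stages did not overlap. The means were 136.0 ± 11.1 CPM in post-molt and 55.9 ± 7.96 CPM in pre-molt muscle (SD, n = 3 each), a log2 change of 1.28 (SE 0.219), or 2.43-fold, with an adjusted p of 0.0023 in the edgeR test on summed counts of all 17908 genes. In that test 11.0% of all genes were called, and 6.90% of all genes were called higher. Among genes with 13 or more linked peaks, 14.2% were called in either direction. The call was kept without pre-molt replicate 2, where the log2 change was 1.36 and the adjusted p in edgeR was 0.00938.

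**Figure D1:**
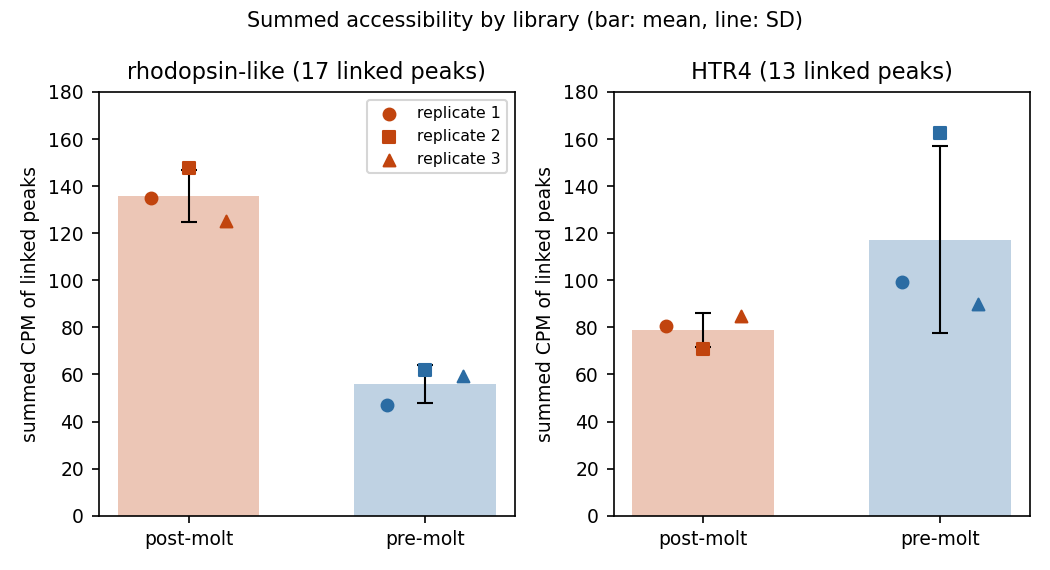
Summed accessibility of the rhodopsin-like gene (left, 17 linked peaks) and of HTR4 (right, 13 linked peaks) in CPM, with a point per library, bars at the stage means and lines for the SD (n = 3 per stage). The 3 post-molt libraries of the rhodopsin-like gene lie between 125.4 and 147.5 CPM, above all pre-molt libraries, while for HTR4 pre-molt replicate 2, at 162.7 CPM, lies far above the other 2 pre-molt libraries.

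All 17 linked peaks of the rhodopsin-like gene had a positive log2 change, with a median of 1.27, against 48.3% of all merged peaks with a positive change and a median of -0.03 over all of them. In edgeR 7 of the 17 were called higher, or 41.2%, and none was lower. Among all merged peaks 6.08% were called higher and 9.95% in either direction. Another 5 had an unadjusted p below 0.05 without passing the adjusted threshold, so that 12 of 17 did in all. The share of all merged peaks below that unadjusted level was not counted, so such counts, here and below, are descriptions only. Without pre-molt replicate 2 the number of called peaks was 8. Without other single libraries it ran from 4, without post-molt replicate 2, to 7, without post-molt replicate 3. Post-molt replicate 2 was the highest of the post-molt libraries in 10 of the 17 peaks, against 34.5% of all merged peaks. Pre-molt replicate 1 was the lowest of the pre-molt libraries in 11 of the 17, against 33.5% of all merged peaks. In 11 of the 17 every post-molt library was above every pre-molt library in CPM, which held for 15.0% of all merged peaks. Among genes with 13 or more linked peaks, 7.12% held 7 or more higher peaks. By class, 6 of 14 intronic peaks and 1 of 3 exonic peaks were called, beside 8.75% of intronic and 4.67% of exonic merged peaks called higher.

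The 7 called peaks all lay inside evm.TU.CM024144.1.277. The nearest to the rhodopsin-like start site, 22.5 kb downstream at 8906098 to 8906814, overlapped exon 6 of 10 of that gene. It held 121, 202 and 149 reads in post-molt replicates 1, 2 and 3, against 49, 59 and 58 reads in pre-molt replicates 1, 2 and 3. The stages were separated by a wide gap, with means of 12.9 ± 2.79 CPM post-molt and 4.38 ± 0.578 CPM pre-molt. Its log2 change was 1.56 (SE 0.334, adjusted p = 0.00482 in edgeR). A called region was found in this peak in 3 of 3 post-molt lists and in none of the 3 pre-molt lists, where peaks had been called in each library alone.

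The other 6 called peaks were in intron 1 of 9 of evm.TU.CM024144.1.277, the first intron of that long gene. An adjacent pair stood 35.0 and 35.9 kb downstream of the rhodopsin-like start site. At the first of them, from 8918588 to 8919052, there were 136, 124 and 117 reads in post-molt replicates 1, 2 and 3, against 39, 54 and 37 reads in pre-molt replicates 1, 2 and 3. The libraries of each stage were close together here, at 10.4 ± 1.12 CPM post-molt and 3.39 ± 0.341 CPM pre-molt, and the log2 change was 1.62 (SE 0.337, adjusted p = 0.00401 in edgeR). Its neighbour, from 8919468 to 8920053, had the smallest adjusted p of the 17 peaks. It held 152, 117 and 82 reads in post-molt replicates 1, 2 and 3, against 22, 24 and 27 reads in pre-molt replicates 1, 2 and 3. Every post-molt library had more than 3 times the reads of any pre-molt library, with means of 9.72 ± 3.15 CPM post-molt and 1.94 ± 0.36 CPM pre-molt. The log2 change was 2.32 (SE 0.38, adjusted p = 0.00076 in edgeR), or 5.01-fold.

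Further along the same intron, the peak 50.6 kb from the start site (8934111 to 8934931) was the widest of the 17, at 821 bp. Its counts were 160, 247 and 111 reads in post-molt replicates 1, 2 and 3, against 28, 73 and 65 reads in pre-molt replicates 1, 2 and 3. Post-molt replicate 2 was the highest and pre-molt replicate 1 the lowest, and the stages did not overlap. The log2 change of 1.70 (SE 0.383, adjusted p = 0.00663 in edgeR) became 1.40 without post-molt replicate 2, with an adjusted p of 0.0527 in the same test.

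The largest log2 change of the 17, 2.38 (SE 0.583, adjusted p = 0.0115 in edgeR), belonged to a weakly covered peak 72.8 kb from the start site. It held 17, 105 and 34 reads in post-molt replicates 1, 2 and 3, against 7, 16 and 8 reads in pre-molt replicates 1, 2 and 3. Most of the post-molt reads came from replicate 2, and post-molt replicate 1 exceeded the highest pre-molt library by a single read. Without post-molt replicate 2 the log2 change was 1.42 and the adjusted p in edgeR 0.283, and the call was also lost without pre-molt replicate 1 (adjusted p = 0.0576) and without pre-molt replicate 3 (adjusted p = 0.0656). The uncalled peak at 71.3 kb held 19, 54 and 9 reads in post-molt replicates 1, 2 and 3, against 9, 14 and 8 in pre-molt replicates 1, 2 and 3. Its log2 change was 1.45 (adjusted p = 0.207 in edgeR), and 0.56 without post-molt replicate 2.

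A cluster of 4 peaks closed the span, 87.4 to 89.6 kb from the start site. Within it the peak at 88.9 kb had 13.8, 13.9 and 9.94 CPM in post-molt replicates 1, 2 and 3, against 3.49, 6.72 and 5.31 CPM in pre-molt replicates 1, 2 and 3. Its stages did not overlap, with 12.5 ± 2.24 CPM post-molt and 5.17 ± 1.62 CPM pre-molt, and the log2 change was 1.27 (SE 0.344, adjusted p = 0.0204 in edgeR). This call was lost without post-molt replicate 1 (adjusted p = 0.0599), post-molt replicate 2 (0.0879), pre-molt replicate 1 (0.0677) or pre-molt replicate 3 (0.0712). The last peak, at 89.6 kb, had 8.87, 8.28 and 4.43 CPM in post-molt replicates 1, 2 and 3, against 2.27, 2.10 and 2.18 CPM in pre-molt replicates 1, 2 and 3. Pre-molt libraries were nearly equal at 2.18 ± 0.0861 CPM, against 7.19 ± 2.41 CPM post-molt, a log2 change of 1.72 (SE 0.384, adjusted p = 0.00642 in edgeR). The remaining peaks of the cluster, at 87.4 and 88.0 kb, had log2 changes of 1.05 and 0.49 and adjusted p of 0.0664 and 0.426 in edgeR. The one at 87.4 kb was called without pre-molt replicate 2, with a log2 change of 1.46 and an adjusted p of 0.0287.

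**Figure D2:**
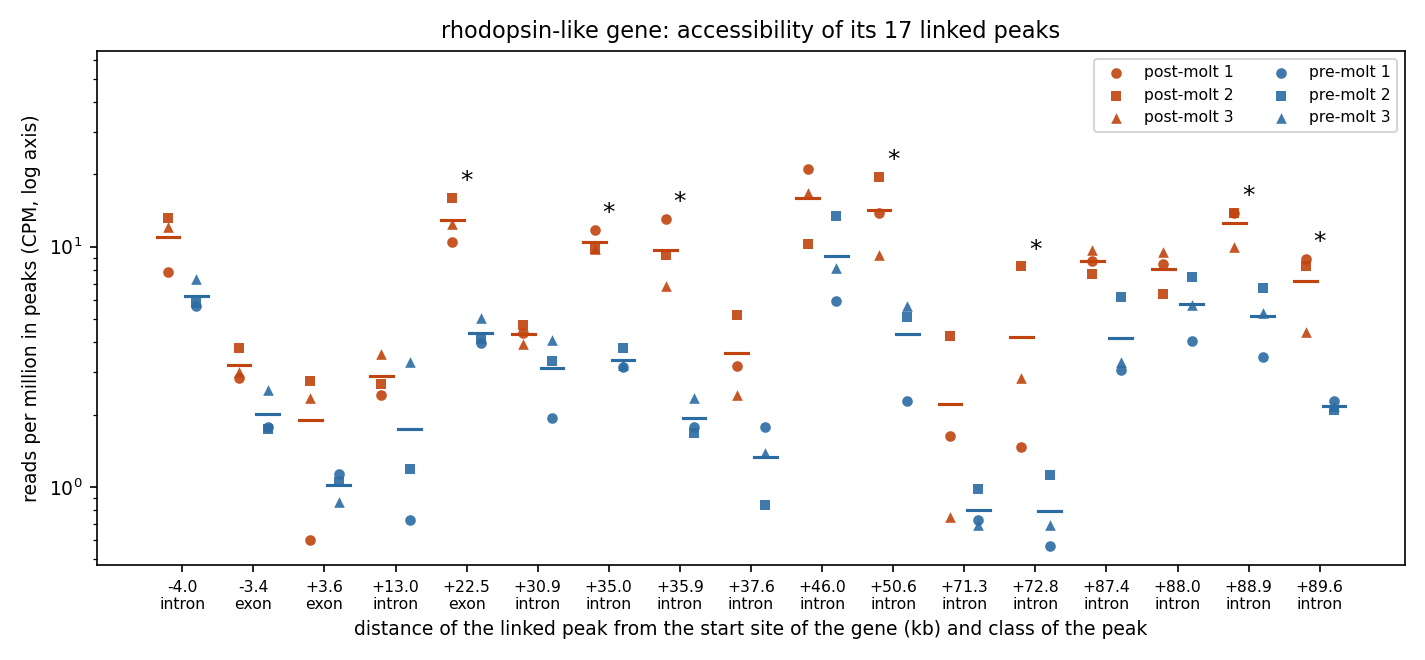
CPM of the 17 linked peaks of the rhodopsin-like gene on a log axis, ordered by distance from its start site in kb, with a point per library, horizontal lines at the stage means and an asterisk above each peak with an adjusted p below 0.05. The post-molt mean is above the pre-molt mean at every peak, and the 7 asterisks fall between 22.5 and 89.6 kb downstream.

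The most covered of the 17 peaks was not called. This intronic peak, 46.0 kb downstream, averaged 155.3 reads per library, with 21.0, 10.3 and 16.7 CPM in post-molt replicates 1, 2 and 3, against 5.92, 13.4 and 8.18 CPM in pre-molt replicates 1, 2 and 3. Pre-molt replicate 2 lay above post-molt replicate 2, so the stages overlapped, and the log2 change was 0.80 (SE 0.358, adjusted p = 0.172 in edgeR). Without pre-molt replicate 2 it was 1.19 (adjusted p = 0.0594). It was also the single peak of the 17 with a called region in all 6 libraries. The peak at 37.6 kb held 37, 66 and 29 reads in post-molt replicates 1, 2 and 3, against 22, 12 and 16 reads in pre-molt replicates 1, 2 and 3. Its stages did not overlap in CPM, and the log2 change of 1.43 (SE 0.483) had an adjusted p of 0.0627 in edgeR, and of 0.0317 and 0.0284 in limma with pseudocounts of 0.1 and 1.

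Inside the body of the rhodopsin-like gene accessibility was low. The peak in its exon 3 of 5 held 7, 35 and 28 reads in post-molt replicates 1, 2 and 3, against 14, 15 and 10 reads in pre-molt replicates 1, 2 and 3. Post-molt replicate 1 was the lowest of all 6 libraries at this exon, and the log2 change of 0.89 (SE 0.676) had an adjusted p of 0.461 in edgeR. The peak in its intron 4 of 4 held 28, 34 and 43 reads in post-molt replicates 1, 2 and 3, against 9, 17 and 38 reads in pre-molt replicates 1, 2 and 3. Pre-molt replicate 3 fell within the post-molt range there, and the log2 change was 0.74 (SE 0.528, adjusted p = 0.428 in edgeR). Both own-body peaks together summed to 4.79 ± 1.56 CPM post-molt and 2.76 ± 1.24 CPM pre-molt, against 114.1 ± 13.6 CPM post-molt and 46.6 ± 10.9 CPM pre-molt for the 13 peaks inside evm.TU.CM024144.1.277. The 2 peaks inside evm.TU.CM024144.1.275 summed to 14.2 ± 3.22 CPM post-molt and 8.29 ± 1.34 CPM pre-molt, and neither was called. Their log2 changes were 0.81 for the intronic peak and 0.67 for the exonic peak (adjusted p = 0.13 and 0.369 in edgeR).

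The summed change was positive on both sides of the border of evm.TU.CM024144.1.277. Summed over the 4 linked peaks outside evm.TU.CM024144.1.277 alone, the rhodopsin-like gene had a log2 change of 0.86 (adjusted p = 0.0472 in edgeR), and over the 13 inside it 1.37 (adjusted p = 0.00186). Of the 4 outside, none was called alone, and the 2 inside evm.TU.CM024144.1.275 held most of the signal. The own-body sum overlapped between stages, at 3.01, 5.44 and 5.93 CPM in post-molt replicates 1, 2 and 3. It was 1.87, 2.24 and 4.18 CPM in pre-molt replicates 1, 2 and 3. The outside value is therefore not one for the gene's own body. This split was chosen after the positions of the peaks had been seen. Each linked peak was also tested against the other linked peaks of its gene with edgeR's differential-usage test, in which 2.43% of 100669 peaks passed. None of the 17 passed (2 had an unadjusted p below 0.05), so no single peak was shown to have changed by a different amount from the rest.

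Most neighbouring peaks also had positive values. Among all merged peaks 48.3% had a positive log2 change and 6.08% were called higher. Of 15 other merged peaks within 50 kb of the span, 14 had a positive log2 change, the median was 1.04 and 2 were called higher. In both called peaks most post-molt reads came from replicate 2 (138, against 39 and 38 in replicates 1 and 3, and 206, against 55 and 51). The 16 peaks linked to evm.TU.CM024144.1.277 itself summed to 67.7, 134.8 and 67.6 CPM in post-molt replicates 1, 2 and 3, against 33.2, 46.5 and 45.0 CPM in pre-molt replicates 1, 2 and 3. Post-molt replicate 2 was far above the other 2 post-molt libraries at this gene, and the log2 change was 1.12 (SE 0.28, adjusted p = 0.0182 in edgeR). The 7 peaks linked to evm.TU.CM024144.1.275 had a summed log2 change of 0.69 (adjusted p = 0.0599 in edgeR).

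The peak lists, made by MACS2 in each library alone, gave a second view of the same reads. Over 17 peaks and 3 libraries a stage allowed 51 library calls for the rhodopsin-like gene, of which 33 were made in post-molt and 15 in pre-molt libraries. Pre-molt replicate 1 had a called region in a single one of the 17 peaks, the one at 46.0 kb. Calls did not lean to post-molt at every peak. The intronic peak at 30.9 kb was called in pre-molt replicates 2 and 3 and in no post-molt library. Its log2 change was 0.47 (adjusted p = 0.504 in edgeR). The peak in intron 4 of the rhodopsin-like gene was called in pre-molt replicate 3 alone. For 6 of the 17 peaks a call came from 1 library only. How often each list called any merged peak was not counted, so these numbers have no background share beside them.

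HTR4 lies on the plus strand of sequence CM024104.1 from 6324039 to 6377507, a body of 53469 bp, and its linked peaks had a different layout. Of the 13, 6 were distal intergenic, 3 were promoter peaks and 4 were in intron 1 of 2 of HTR4 itself, over 38.6 kb from 6300425 to 6339020. Unlike for the rhodopsin-like gene, none of the 13 was annotated to an exon or intron of a neighbouring gene. At the 3′ end of the body, 2 further merged peaks were linked by the table to the convergent gene evm.TU.CM024104.1.158 and are not counted among the 13. The one in intron 1 (6374707 to 6375318) had a log2 change of 0.04 and an adjusted p of 0.953 in edgeR, and the one in exon 2 of 3 (6375556 to 6376367) had -0.40 and 0.472.

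Summed over its 13 peaks, HTR4 did not pass the test. The sum was 80.5, 71.0 and 84.9 CPM in post-molt replicates 1, 2 and 3, against 99.1, 162.7 and 89.8 CPM in pre-molt replicates 1, 2 and 3. All pre-molt libraries were above all post-molt libraries, yet pre-molt replicate 3 exceeded the highest post-molt library by little and pre-molt replicate 2 by a wide margin. The means were 78.8 ± 7.12 CPM post-molt and 117.2 ± 39.7 CPM pre-molt (SD, n = 3 each), with a log2 change of -0.57 (SE 0.249, adjusted p = 0.16 in edgeR). Without pre-molt replicate 2 the log2 change was -0.26 (adjusted p = 0.375). Leaving out the most covered peak gave a log2 change of -0.86, with an adjusted p of 0.056.

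In edgeR 2 of the 13 HTR4 peaks were called lower post-molt, or 15.4%, beside the 9.95% of all merged peaks called in either direction and 3.86% called lower. None was called higher, 1 of the 13 having an unadjusted p below 0.05 in that direction, and DESeq2 called none higher either. The median log2 change of the 13 was -0.40, 3 were positive, and 5 had every post-molt library below every pre-molt library in CPM, which held for 12.1% of all merged peaks. Among genes with 13 or more linked peaks, 20.3% held 2 or more lower peaks. Pre-molt replicate 2 was the highest of the pre-molt libraries in 10 of the 13 peaks, against 36% of all merged peaks.

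Both called HTR4 peaks were distal and upstream. At the first, 22.1 kb upstream (6301074 to 6301964), there were 98, 117 and 129 reads in post-molt replicates 1, 2 and 3, against 234, 597 and 206 reads in pre-molt replicates 1, 2 and 3. The stages did not overlap, and pre-molt replicate 2 was more than 2 times as high as the other pre-molt libraries in CPM (41.8, against 19.0 and 17.9). The log2 change was -1.47 (SE 0.351, adjusted p = 0.00975 in edgeR), or 2.77-fold lower. Without pre-molt replicate 2 it was -0.94 with an adjusted p of 0.059, and without post-molt replicate 2 it was -1.45 with an adjusted p of 0.0519, so that either omission ended the call.

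The second called peak, 15.7 kb upstream (6307788 to 6308353), held 8.61, 8.51 and 8.19 CPM in post-molt replicates 1, 2 and 3, against 12.7, 36.5 and 15.7 CPM in pre-molt replicates 1, 2 and 3. Post-molt libraries were almost equal at 8.44 ± 0.222 CPM, against 21.6 ± 13 CPM pre-molt, and again pre-molt replicate 2 stood out. The log2 change was -1.36 (SE 0.367, adjusted p = 0.0203 in edgeR), or 2.57-fold lower, and it was -0.74 without pre-molt replicate 2 (adjusted p = 0.147). The call was also lost without post-molt replicate 2 (adjusted p = 0.0767) and without post-molt replicate 3 (adjusted p = 0.0749). These were 2 of the 6 distal peaks, beside 3.87% of distal intergenic merged peaks called lower.

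The most covered HTR4 peak lay between the called pair and the gene, 14 kb upstream (6308855 to 6310010), and was the widest of all 30 at 1156 bp. It held 264, 262 and 264 reads in post-molt replicates 1, 2 and 3, against 221, 465 and 193 reads in pre-molt replicates 1, 2 and 3. The means were close, at 21.8 ± 1.06 CPM post-molt and 22.4 ± 8.79 CPM pre-molt, and pre-molt replicates 1 and 3 were below the post-molt libraries while replicate 2 was above them. The log2 change was -0.04 (SE 0.318, adjusted p = 0.956 in edgeR), and it was 0.34 without pre-molt replicate 2 (adjusted p = 0.444). The other 3 distal peaks, at 4.85, 13.5 and 23.1 kb, had log2 changes of -0.09, -0.85 and -0.40, and none passed. The last of these was 0.04 without pre-molt replicate 2 (adjusted p = 0.967 in edgeR).

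None of the 3 promoter peaks of HTR4 passed, beside 3.54% of promoter merged peaks called lower. The peak 2.64 kb upstream held 74, 72 and 88 reads in post-molt replicates 1, 2 and 3, against 138, 226 and 124 reads in pre-molt replicates 1, 2 and 3. The stages did not overlap, at 6.47 ± 0.842 CPM post-molt and 12.6 ± 2.80 CPM pre-molt, and the log2 change of -0.96 (SE 0.325) had an adjusted p of 0.0623 in edgeR and 0.0308 in DESeq2. The peak 1.93 kb upstream held 6.80, 5.68 and 6.43 CPM in post-molt replicates 1, 2 and 3, against 8.76, 10.9 and 7.83 CPM in pre-molt replicates 1, 2 and 3. Its stages did not overlap either, and the log2 change was -0.54 (SE 0.325, adjusted p = 0.331 in edgeR). The peak over the start site (6324016 to 6324245) was much lower, with 28, 48 and 24 reads in post-molt replicates 1, 2 and 3, against 32, 35 and 35 reads in pre-molt replicates 1, 2 and 3. Pre-molt libraries fell within the post-molt range there, and the log2 change was 0.02 (SE 0.427, adjusted p = 0.982 in edgeR), or -0.03 without pre-molt replicate 2 (adjusted p = 0.978).

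None of the 4 intronic peaks of HTR4 passed. The one 3.33 kb downstream of the start site held 49, 21 and 28 reads in post-molt replicates 1, 2 and 3, against 19, 10 and 13 reads in pre-molt replicates 1, 2 and 3. All post-molt libraries were above all pre-molt libraries in CPM, the lowest by a small margin (1.66 against 1.54), and the log2 change was 1.28 (SE 0.565, adjusted p = 0.165 in edgeR). Against the other linked peaks of HTR4 it was higher by 1.93 on the log2 scale (adjusted p = 0.0389 in edgeR's differential-usage test), the only one of the 13 to pass, while 4 had an unadjusted p below 0.05. That call was kept without pre-molt replicate 1 (adjusted p = 0.0342) and lost without any other single library, the value falling to 1.31 without pre-molt replicate 2 (adjusted p = 0.428).

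The remaining intronic peaks overlapped between stages. At 12.7 kb there were 41, 40 and 54 reads in post-molt replicates 1, 2 and 3, against 36, 52 and 22 reads in pre-molt replicates 1, 2 and 3, a log2 change of 0.39 (adjusted p = 0.604 in edgeR). At 13.4 kb, the least covered of the 30 peaks, there were 12, 18 and 6 reads in post-molt replicates 1, 2 and 3, against 8, 36 and 5 reads in pre-molt replicates 1, 2 and 3, with a log2 change of -0.30 (adjusted p = 0.867 in edgeR), or 0.86 without pre-molt replicate 2 (adjusted p = 0.622). Replicate 2 was the highest library of both stages at that peak. At 14.7 kb there were 54, 30 and 46 reads in post-molt replicates 1, 2 and 3, against 49, 120 and 58 reads in pre-molt replicates 1, 2 and 3, with a log2 change of -0.69 (adjusted p = 0.303 in edgeR). The 5 peaks in the gene body together had nearly equal sums, 13.8 ± 1.81 CPM post-molt and 13.7 ± 3.51 CPM pre-molt, whereas the 8 upstream peaks summed to 63.3 ± 5.05 CPM post-molt and 107.4 ± 43.6 CPM pre-molt. The spread of the upstream sum came from pre-molt replicate 2, at 157.8 CPM, against 82.2 and 82.3 CPM in the other pre-molt libraries, while its body sum was 17.7 CPM, against 11.7 and 11.6 CPM.

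**Figure D3:**
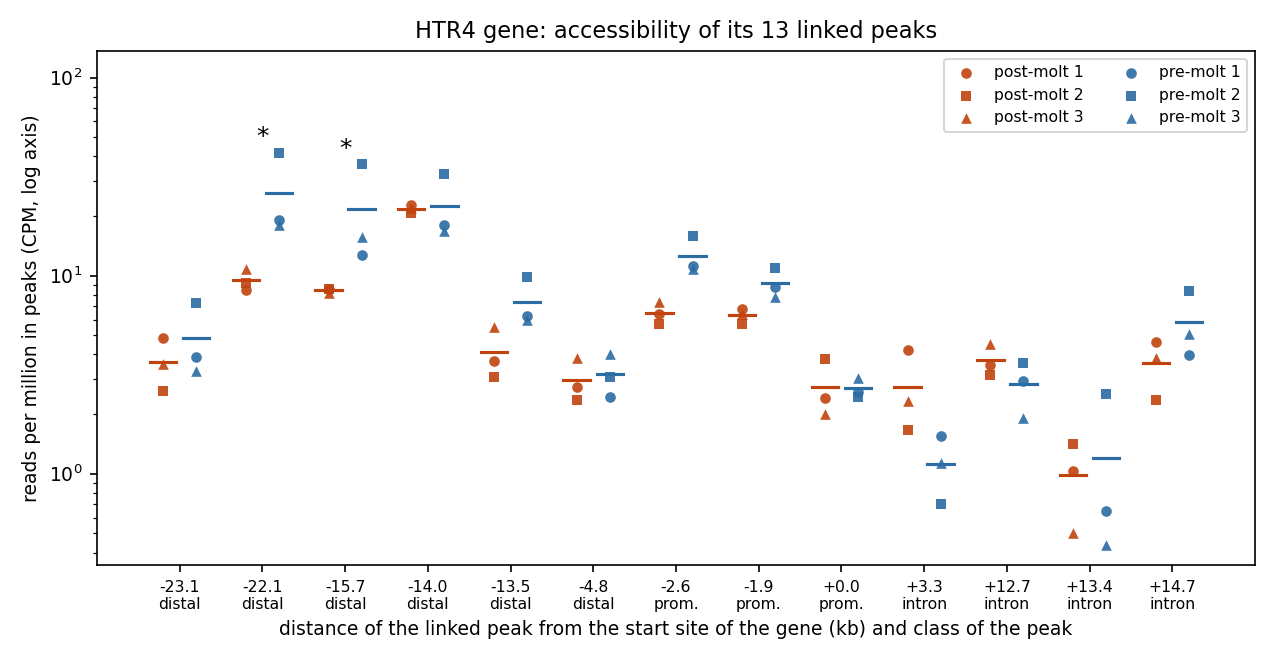
CPM of the 13 linked peaks of HTR4 on a log axis, ordered by distance from its start site in kb, with a point per library, horizontal lines at the stage means and an asterisk above each peak with an adjusted p below 0.05. Both asterisks are over distal peaks, 22.1 and 15.7 kb upstream, where pre-molt replicate 2 (square) reaches 41.8 and 36.5 CPM.

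For HTR4, 23 of 39 possible library calls were made in post-molt and 24 of 39 in pre-molt libraries. As for the rhodopsin-like gene, no background share was counted. Counting only calls with a −log10 q of at least 5, the numbers were 15 in post-molt and 23 in pre-molt libraries. All 6 libraries had a called region in 5 of the 13 peaks, which included both peaks called lower, the most covered peak and the promoter peaks at 2.64 and 1.93 kb. At the peak 22.1 kb upstream the fold enrichment given by MACS2 was 3.88, 8.57 and 7.11 in post-molt replicates 1, 2 and 3, against 13.1, 19.1 and 13.7 in pre-molt replicates 1, 2 and 3. The start-site peak was called in post-molt replicate 2 alone. Of 4 other merged peaks within 50 kb of its span, none passed in edgeR and 1 had a positive log2 change.

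The summed changes of the rhodopsin-like gene and HTR4 had opposite signs, though that of HTR4 was not called. The ratio of their sums was taken within each library. The log2 ratio of summed CPM, rhodopsin-like over HTR4, was 0.74, 1.05 and 0.56 in post-molt replicates 1, 2 and 3, against -1.08, -1.40 and -0.60 in pre-molt replicates 1, 2 and 3. The sign was the same in all 3 libraries of a stage. The means were 0.79 ± 0.249 post-molt and -1.03 ± 0.401 pre-molt, a difference of 1.81 on the log2 scale with a two-sided exact permutation p of 0.1, the smallest that 3 libraries against 3 can give. Each gene's sum had already separated the stages, in opposite directions, so this p could take no other value and adds no support. Without pre-molt replicate 2 the difference was 1.63.

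**Figure D4:**
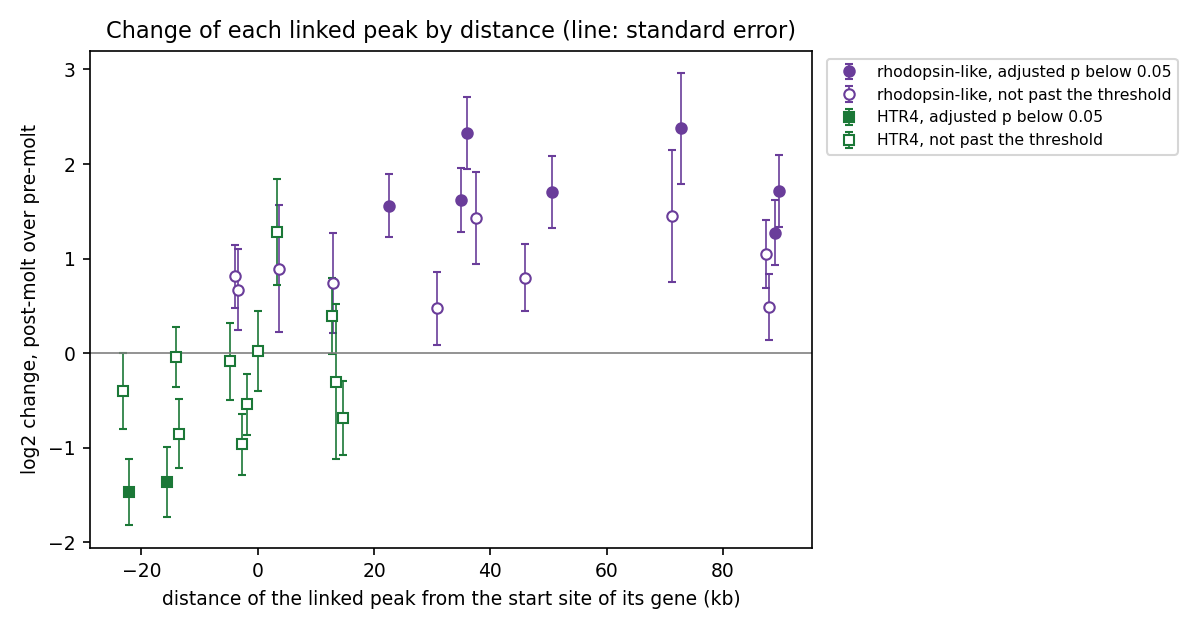
Log2 change, post-molt over pre-molt, of each linked peak against its distance from the start site of its gene in kb, with circles for the rhodopsin-like gene, squares for HTR4, filled symbols for an adjusted p below 0.05 and lines for the standard error. All 17 circles lie above 0, from 0.47 to 2.38, and the squares run between -1.47 and 1.28.

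Of 12 further genes in the study's receptor tables and text, 4 were called higher on summed linked peaks, 2 lower and 6 not, beside 6.90% and 4.11% of all genes called in each direction. This list was picked by the study on stage comparisons that used its earlier pre-molt and post-molt muscle data. It is therefore not independent evidence of a direction. Its median log2 change was 0.52, against -0.03 over all genes. The higher genes were GRM7, a metabotropic glutamate receptor (log2 change 2.06), mth2 of the methuselah receptor family (1.41), evm.TU.CM024097.1.36 (1.43) and sky (0.79), named after a fly gene for a regulator of vesicle traffic rather than a receptor. The lower genes were SSTR2, a somatostatin receptor (-1.44), and moody, which in the fly is needed for the blood-brain barrier (-1.21). The rhodopsin-like value of 1.28 was inside the range of the called higher genes, and the HTR4 value of -0.57 was nearer to 0 than those of both called lower genes.

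Genes with the most similar pattern were ranked by Pearson correlation of log2 CPM of summed linked peaks over the 6 libraries, among 13589 genes with a mean of at least 100 reads. For the rhodopsin-like gene these were evm.TU.CM024103.1.301 (r = 0.998), evm.TU.CM024145.1.201 (r = 0.997) and evm.TU.CM024118.1.232 (r = 0.996), with log2 changes of 1.21, 0.69 and 0.71. For HTR4 they were evm.TU.CM024165.1.485 (r = 0.997), evm.TU.CM024146.1.367 (r = 0.995) and evm.TU.CM024154.1.138 (r = 0.993), with log2 changes of -0.61, -0.66 and -0.49. All points share the same 6 libraries, so these are descriptions of pattern and carry no test.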

How the data were processed

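ATAC-seq of muscle was compared between 3 post-molt and 3 pre-molt libraries, grouped by the sample titles. Per the labels, the authors aligned reads with BWA and called peaks with MACS2. The shift for the Tn5 offset and the rule for merging lists are not given in the sources used here. The study's methods describe MACS2 calls on single samples with duplicates kept, so PCR copies may count as reads.

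The authors' deposited table holds whole-number read counts per merged peak, used as deposited. Its RPM values, made by the authors from count plus 1, gave the library totals of 41050903 to 51652893 reads used in one alternative. Its fold enrichment, a ratio made by the authors, was not used. The deposited log2 fold changes, p-values and q-values are the authors' own comparison and were not used. The authors' peak lists give a MACS2 score, a fold enrichment ratio and −log10 p-value and q-value per summit, used to describe calls within a library. The numbering used in the names of listed peaks differs from that of the sample titles, but each list matched the table's plus or minus sign of its own replicate in 100% of merged peaks (to 3 significant digits) and that of any other library in at most 71.8%. Coordinates are 1-based, on the reference genome of the authors, whose sequences carry CM names. Region classes, distances and linked genes are those of the deposited table. No sequence was printed, since the reference used here is a gene table of another assembly.

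Stage was tested with edgeR 4.0.16 (R 4.3.3; quasi-likelihood, TMM, no filter, adjusted over all peaks), and on counts summed by linked gene, adjusted over all genes. SE is the log2 change over the root of its F statistic. CPM are counts scaled to TMM library sizes. The TMM factors were computed over peaks for single peaks and parts of a gene, and over summed counts for whole genes. Each linked peak was tested against the others of its gene with diffSpliceDGE. The ratio of both genes used an exact permutation test over libraries, two-sided. Alternatives were DESeq2 1.42.0, limma 3.58.1 on log2(CPM + 0.1) and log2(CPM + 1), other scalings, a low-count filter, a replicate block, each library left out and stricter library calls. The edgeR, DESeq2 and limma tests were checked on simulated counts with 200 changed features. All features had the same dispersion there, and no library stood apart. For diffSpliceDGE only the size of the recovered change had to meet a limit, not the false calls. Plots were drawn with Python 3.11.15 and matplotlib 3.10.9.

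Every linked peak is accounted for. Values in every library are given for called peaks, promoter peaks, the peak with the most reads, peaks in the gene's own body, and the rest by range and count. The members and lists were chosen with earlier results of these data known. Libraries of a stage differed beyond sampling noise (chi-square of 5.66 to 18.6 per degree of freedom), so each was counted once.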

Additional observations from a re-analysis of the deposited data

How the results depend on the processing

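The summed rhodopsin-like gene kept its direction and stayed past the threshold under 19 of 20 alternatives, with log2 changes of 0.86 to 1.37; the exact permutation test of summed CPM gave p = 0.1, the smallest it allows, for the same change of 1.28. HTR4 stayed negative and uncalled in edgeR, DESeq2 and limma under all 19 of its alternatives, from -0.86 to -0.26. Of the 7 called rhodopsin-like peaks, 4 kept their call throughout; the one at 72.8 kb missed the threshold in limma (adjusted p = 0.14 and 0.135 with pseudocounts of 0.1 and 1), and the one at 88.9 kb with library totals (0.0525). Calls were gained by the peak at 37.6 kb in limma (adjusted p = 0.0317 and 0.0284) and by the one at 87.4 kb without pre-molt replicate 2 (0.0287). No rhodopsin-like peak changed sign. Replicate numbers did not pair the libraries (same-number correlations of deviations -0.204, -0.163 and -0.111); with them as a replicate block, 9047 peaks and 1783 genes were called, with log2 changes of 1.29 for the rhodopsin-like gene (adjusted p = 0.00076) and -0.52 for HTR4 (0.268).

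The signs that reversed all belonged to uncalled HTR4 peaks. For the start-site peak the log2 change was -0.00958 with DESeq2 size factors, -0.02 with library totals, -0.0104 with median centring, -0.105 with loess offsets, -0.00946 in DESeq2, -0.0561 and -0.0418 in limma with pseudocounts of 0.1 and 1, and -0.0154 with the replicate block. The most covered peak gave 0.2 with loess offsets and 0.0256 with the replicate block. With a library left out, values ranged from -0.286 to 0.203 at the start site, -0.212 to 0.343 at 14 kb, -0.307 to 0.113 at 4.85 kb, -0.689 to 0.86 at 13.4 kb and -0.645 to 0.0385 at 23.1 kb. The cause was not tested.

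The intronic HTR4 peak against its other peaks was 2.01 with library totals (adjusted p = 0.0523) and 1.31 to 2.39 with a library left out. Called genes numbered 992 with library totals, against 1972 in the main fit. With a library left out, called genes numbered 985 to 1655, and called peaks 3996 to 8796, against 10410. All of those fits used fewer libraries, yet the counts differed with the library removed. Both lowest counts came without post-molt replicate 2, and the highest count of peaks came without post-molt replicate 1. The cause was not tested. The share of calls that were higher was 61.2% of peaks and 62.7% of genes in the main fits. It was 50.2% of peaks and 47.5% of genes without pre-molt replicate 3, and 70% and 71.6% without post-molt replicate 3. Requiring a −log10 q of at least 5 left 21 post-molt and 11 pre-molt library calls for the rhodopsin-like gene, and 15 post-molt and 23 pre-molt calls for HTR4. With 14.2 to 278.2 reads per library and peak and 3 crabs a stage, small changes at the weak peaks were not detectable.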
